A study of Mus musculus with 6 samples.

Results

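The genes described are 10 NF-kB targets, chemokines and IL-6 family cytokines, chosen by name: the chemokines Cxcl1, Cxcl5, Ccl2 and Ccl7, the cytokines Il6, Lif and Il11, the NF-kB inhibitors Nfkbia and Tnfaip3, and the adhesion molecule Icam1. All 10 were listed among the 55291 genes of the count table, and 8 of them were among the 14290 genes with enough counts to be tested. Il6 and Icam1 were not, and are given by their counts. RNA-seq was performed on WT MEFs (wild-type mouse embryonic fibroblasts, connective tissue cells grown from embryos) under 3 treatments, with 2 libraries of polyA RNA each. MASM7, a small molecule activator of the mitofusins, was given at 1 μM for 6 h, and MFI8, an inhibitor of the mitofusins, at 20 μM for 6 h. The third treatment was vehicle, whose duration is not stated in the sources used here. No genetic change is named for any group, and the libraries of a treatment are described as independent biological replicates, numbered 1 and 2 by their labels. Mitofusins are the GTPases of the outer mitochondrial membrane that tether and fuse mitochondria. The comparisons ask whether the RNA levels of this group of genes differ when mitofusin activity is pharmacologically raised or lowered. The compounds were used at different doses, so compound and dose cannot be told apart.

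NF-kB is a family of dimeric transcription factors held in the cytosol by IkB proteins. Signals from cytokine and pattern-recognition receptors activate the IKK kinases, IkB is degraded, and the freed dimers enter the nucleus and bind kappaB sites in target promoters. Nfkbia encodes IkBalpha and Tnfaip3 encodes the ubiquitin-editing enzyme A20, and both are targets that in turn restrain the pathway. Cxcl1 and Cxcl5 attract neutrophils through Cxcr2, whereas Ccl2 and Ccl7 attract monocytes through Ccr2. Il6, Lif and Il11 signal through the shared receptor subunit gp130 to JAK kinases and STAT3. Fibroblasts are a known source of these chemokines and cytokines, and Icam1 is a ligand for leukocyte integrins on stimulated cells.

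RefSeq promoters (GRCm38.p6, 250 bases before to 50 bases after a start) were matched for 7 of the 10 genes, with 9 starts in all. Those of Cxcl5, Ccl2 and Ccl7 were not analysed here. The stretches that match the kappaB consensus are shown because this is the sequence through which NF-kB is known to reach its targets. The consensus is 3 Gs, a purine, any base, A or T, 2 pyrimidines and 2 Cs, and capitals mark the match within 10 bases of flank on each side. Positions count from the start, with the base before it at -1.
Il6, chr5:30013060-30013089, plus strand, match at -44 to -35: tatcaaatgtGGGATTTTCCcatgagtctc
Cxcl1, chr5:90891164-90891193, plus strand, match at -71 to -62: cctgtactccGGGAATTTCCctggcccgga
Tnfaip3, chr10:19015516-19015545, minus strand, match at -125 to -116: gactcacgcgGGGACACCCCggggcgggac
Tnfaip3, chr10:19015403-19015432, minus strand, match at -12 to -3: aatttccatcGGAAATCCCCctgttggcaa
Nfkbia, chr12:55492657-55492686, minus strand, match at -29 to -20: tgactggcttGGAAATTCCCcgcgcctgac
The second Tnfaip3 match and that of Nfkbia read as the consensus on the opposite strand. The Cxcl1 stretch also matched on the opposite strand 1 base further on, so its 2 matches overlap. Both strands were searched, and 4.51% of the 32851 RefSeq promoters of this length held a match. No match was found in these windows for Lif, Icam1, both Il11 starts or the other Tnfaip3 start. Stretches that differ from the consensus at any base were not searched, so a window without a match may still hold a kappaB site.

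Other motifs were searched in the same windows on both strands. The AP-1 motif TGANTCA was present for Il6, Lif, 1 Il11 start and Tnfaip3, where it lay at -136 to -130, and it was in 7.81% of all promoters. The STAT motif TTCNNNGAA was present for Icam1 alone among the 7 genes, at -42 to -34, and in 8.3% of all promoters. TATAAA was found for Tnfaip3 at -225 to -220, and after the start for Icam1 at 14 to 19 (13.6% of all promoters). For Nfkbia it was also after the start, at 20 to 25 on the opposite strand. CACGTG was found for Tnfaip3 (7.15%). Neither the CRE motif TGACGTCA (1.79%) nor the C/EBP motif TTGCGCAA (0.183%) was found in any of the 9 windows. These matches describe the sequence and not binding, which was not measured.

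The libraries held 22791792 to 30677751 counts on genes, with 20599 to 21558 genes detected in each and TMM scaling factors of 0.991 to 1.01. All 10 fibroblast markers tested had counts in every library, led by Vim, S100a4 and Col1a1, and their summed TPM (the authors' level per gene length, scaled to the same total in each library) was between 5424 and 6972. Thy1 and Postn were low, at mean levels of 0.476 and 0.211 TPM. Of 12 macrophage and leukocyte markers, 10 had at most 10 counts in every library and 5 (Adgre1, Tyrobp, C1qa, C1qb and Cd3e) were at 0 in all. Csf1r and Itgb2 were not among the 10, at mean levels of 4.77 and 3.34 TPM. The summed TPM of the 12 was 7.84 to 8.41 with vehicle, 8.67 to 9.34 with MASM7 and 8.27 to 10.03 with MFI8. Of 7 endothelial markers, Kdr, Emcn and Cldn5 were at 0 in all libraries, while Egfl7 averaged 7.31 TPM and Cdh5 0.237 TPM. The summed TPM of the 7 was 6.46 to 9.49. That of the 5 epithelial markers was 1.44 to 2.21. Since whole cultures were sequenced, fewer cells that make a transcript and less of it per cell cannot be told apart.

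Ccl2 was the most highly expressed of these genes in every library. Ccl7 and Nfkbia came next. Nfkbia was above Ccl7 in MASM7 replicate 2 (247 and 244 TPM) and MFI8 replicate 2 (247 and 206 TPM), and below it elsewhere. Ccl2 averaged 535 ± 130 TPM with vehicle (SD, n = 2), and over all 6 libraries 98.1% of the tested genes were below it. Ccl7 averaged 316 ± 71.6 TPM with vehicle, and Nfkbia 251 ± 51.9 TPM, with 96.2% and 95.5% of tested genes below them. The neutrophil chemokines stood lower, Cxcl1 at 130 ± 25.8 TPM and Cxcl5 at 37.7 ± 11.04 TPM. Tnfaip3 (31.8 ± 3.30 TPM) and Lif (25.2 ± 1.06 TPM) lay near the middle of the tested genes, above 63.5% and 56.2% of them. Il11 was at 1.55 ± 0.307 TPM, above 12.3% of tested genes, and Il6 and Icam1 were close to 0. With vehicle, the libraries of Ccl2 did not overlap those of Ccl7, but those of Ccl7 and Nfkbia did, as did those of Cxcl5 with Tnfaip3. With MFI8 the mean of Nfkbia (266 TPM) was above that of Ccl7 (260 TPM). The levels of single genes moved little across the study: the highest library was 1.22 times the lowest for Lif, 1.30 for Tnfaip3, 1.35 for Nfkbia, 1.46 for Cxcl1, 1.52 for Cxcl5, 1.56 for Ccl2, 1.72 for Il11 and 1.78 for Ccl7.

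**Figure D1:**
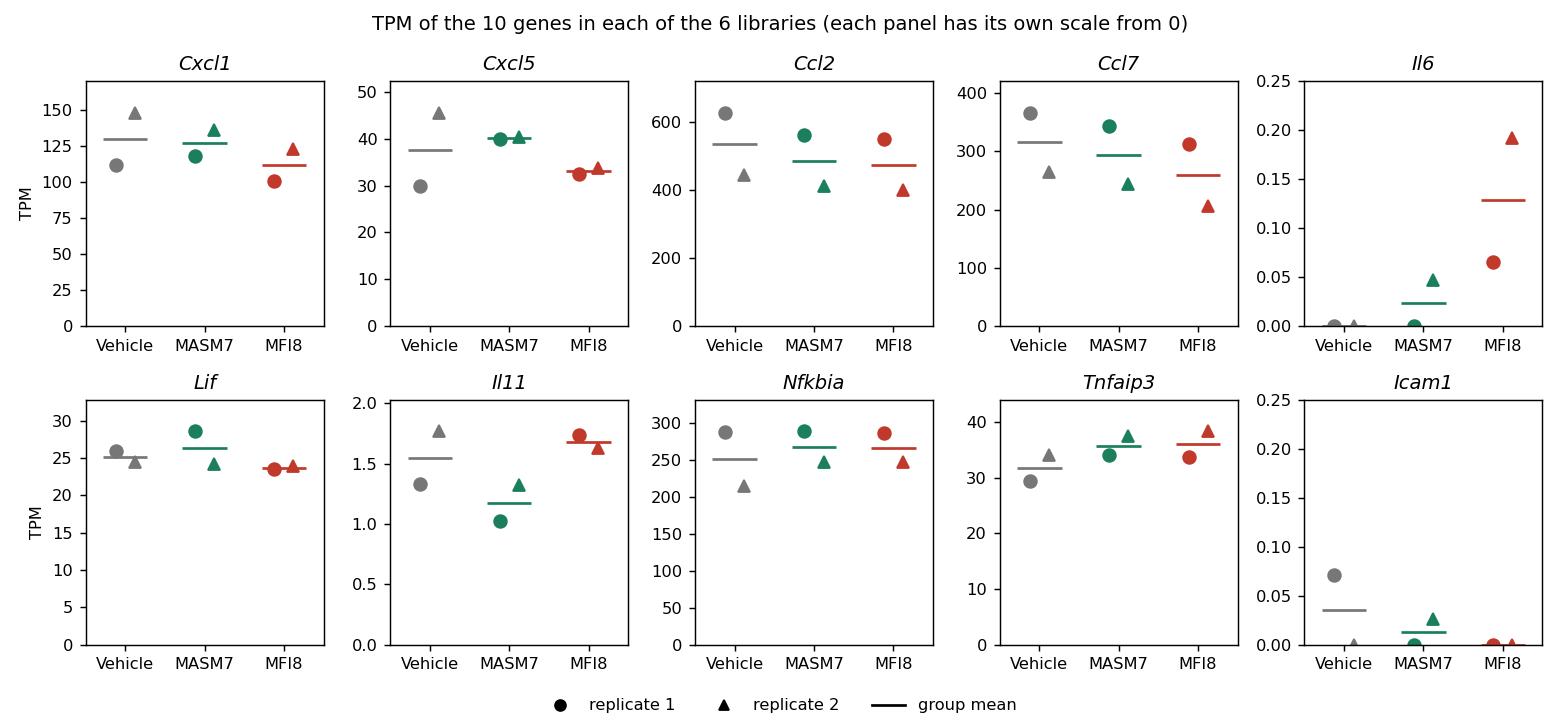
Level in TPM (vertical axis, from 0 on a scale of its own for each gene) of the 10 genes in each library by treatment, with circles for replicate 1, triangles for replicate 2 and lines for the group mean (n = 2). Ccl2 and Ccl7 are higher in every circle than in any triangle, while Il6 and Icam1 stay below 0.2 TPM.

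Ccl2 and Ccl7 lie side by side on mouse chromosome 11, at chr11:82035571-82037453 and chr11:82045712-82047525 on the plus strand (GRCm38, GENCODE vM21), 8258 bases apart. In library order, replicate 1 before replicate 2, Ccl2 stood at 627 and 444 TPM with vehicle, 562 and 412 TPM with MASM7, and 550 and 401 TPM with MFI8. Ccl7 stood at 366 and 265 TPM with vehicle, 345 and 244 TPM with MASM7, and 313 and 206 TPM with MFI8. For both genes, all 3 replicate 1 libraries were above all 3 replicate 2 libraries, and within each replicate number vehicle was the highest and MFI8 the lowest, while the groups overlapped. The ratio of Ccl2 to Ccl7 TPM was 1.63 to 1.76 in 5 libraries and 1.94 in MFI8 replicate 2.

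Cxcl1 and Cxcl5 lie in the Cxcl cluster of chromosome 5, at chr5:90891241-90893115 and chr5:90759360-90761624 on the plus strand, 129616 bases apart. Cxcl1 stood at 112 and 148 TPM with vehicle, 118 and 136 TPM with MASM7, and 101 and 123 TPM with MFI8. In contrast to the Ccl genes, Cxcl1 was higher in all 3 replicate 2 libraries than in all 3 replicate 1 libraries on the CPM scale (counts scaled to library size, 64.1 to 78.0 against 52.6 to 63.3). Cxcl5 stood at 29.9 and 45.5 TPM with vehicle, 40.1 and 40.3 TPM with MASM7, and 32.5 and 33.8 TPM with MFI8. The vehicle libraries of Cxcl5 therefore differed more from each other than those of either compound, and enclosed all 4 of them. The ratio of Cxcl1 to Cxcl5 TPM was between 2.95 and 3.73.

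The genes between and beside these chemokines, named for their position after their values were seen, were expressed unevenly. Ppbp, the next gene after Cxcl5, was the highest of the Cxcl cluster at 511 and 860 TPM with vehicle, 695 and 1077 TPM with MASM7, and 588 and 811 TPM with MFI8, and was higher in replicate 2 within each treatment, as Cxcl1 was. Cxcl3, at 111 to 157 TPM, stood close to Cxcl1 and was also higher in replicate 2 within each treatment. Pf4, Cxcl15 and Cxcl2 did not exceed 0.647, 0.074 and 0.152 TPM. Beyond Ccl7, Ccl11 did not exceed 0.109 TPM, Ccl12 was listed at 0 in every library and Ccl8 was at 5.22 to 7.75 TPM. The chemokines of a cluster are similar in sequence, and how reads shared between them were counted is not given in the sources used here.

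**Figure D2:**
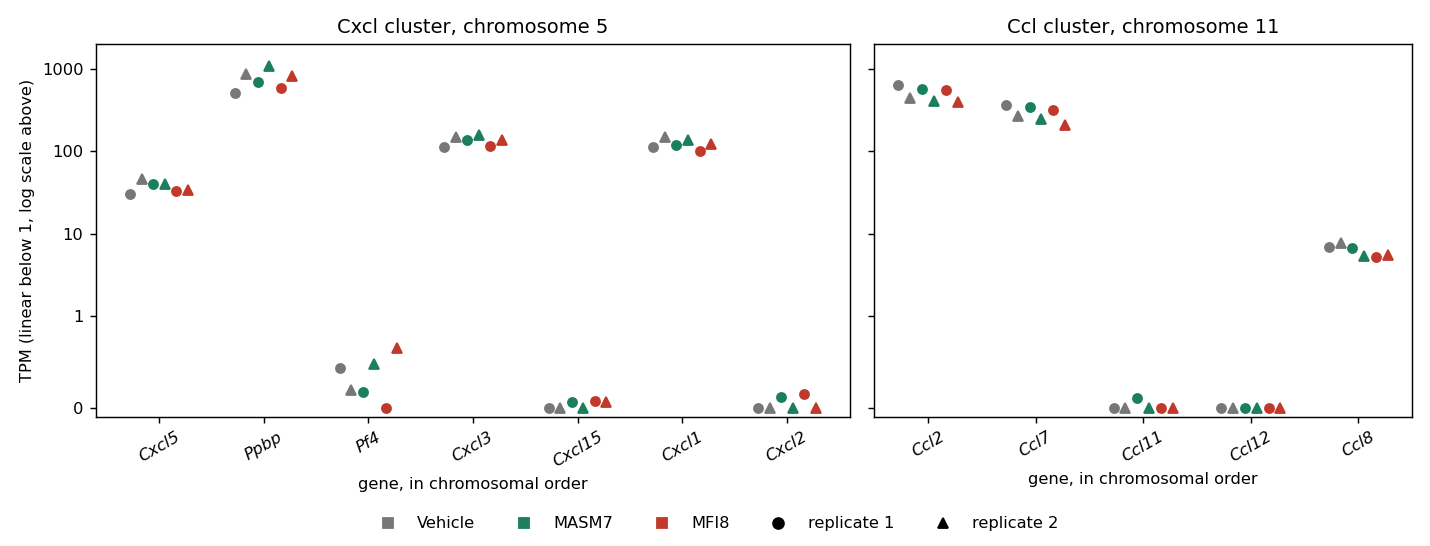
Level in TPM (vertical axis, linear below 1 and logarithmic above) of the chemokine genes of the chromosome 5 and chromosome 11 clusters in chromosomal order, with 1 point for each library, coloured by treatment and shaped by replicate number. Ppbp, Cxcl3 and Cxcl1 stand above 100 TPM in every library and Cxcl2 below 0.2 TPM, and Ccl2 and Ccl7 stand above 200 TPM beside Ccl11 and Ccl12 near 0.

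Lif, which keeps embryonic stem cells undifferentiated and signals through gp130, lies at chr11:4257557-4272514 on the plus strand. It stood at 25.9 and 24.4 TPM with vehicle, 28.6 and 24.3 TPM with MASM7, and 23.5 and 24.0 TPM with MFI8. Both MFI8 libraries were below the other 4. Il11, a gp130 cytokine known for its action in fibroblasts and stroma, lies at chr7:4772373-4782859 on the minus strand and had 18 to 29 counts a library. Its level was 1.33 and 1.77 TPM with vehicle, 1.02 and 1.32 TPM with MASM7, and 1.73 and 1.63 TPM with MFI8. The MASM7 libraries were the lowest, and those of vehicle and MFI8 overlapped.

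Il6, at chr5:30013114-30019981 on the plus strand, had 0 counts in both vehicle libraries, 0 and 1 with MASM7, and 1 and 4 with MFI8. The total of 5 counts with MFI8 has an exact Poisson interval of 1.62 to 11.7 counts, and the 0 counts with vehicle allow up to 3.69 (both 95%, for counting error only). Icam1, at chr9:21015985-21028817 on the plus strand, was counted 2 and 0 times in the vehicle libraries, 0 and 1 times under MASM7, and 0 times in both under MFI8. Of its exonic bases, 11.7% are shared with the antisense gene Gm47079 on the other strand, and the other 9 genes share none. A floor of 3 counts corresponds to 0.0978 to 0.132 CPM in these libraries, and only MFI8 replicate 2 passed it for Il6, while no library did for Icam1. Neither gene had enough counts to be tested, and the intervals of Il6 with vehicle and with MFI8 overlap.

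Nfkbia, at chr12:55489410-55492647 on the minus strand, stood at 287 and 214 TPM with vehicle, 288 and 247 TPM with MASM7, and 286 and 247 TPM with MFI8. The replicate 1 libraries were nearly level across the treatments and all above the replicate 2 libraries. Tnfaip3, at chr10:19000910-19015657 on the minus strand, stood at 29.5 and 34.2 TPM with vehicle, 34.1 and 37.6 TPM with MASM7, and 33.7 and 38.4 TPM with MFI8. In each treatment its replicate 2 library was the higher. The ratio of Nfkbia to Tnfaip3 TPM was 8.46 to 9.73 in the replicate 1 libraries and 6.26 to 6.55 in the replicate 2 libraries.

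With MFI8 compared with vehicle, all 4 chemokines had lower mean levels and both NF-kB inhibitors higher ones, although the signs of Cxcl5, Ccl2 and Nfkbia each turned when 1 library was left out. No difference passed the test with treatment alone in the model and a filter on low counts. Those of 3 chemokines did in edgeR with the replicate number added as a block. Without the filter or the block, that of Ccl7 did in edgeR (-0.31, adjusted p = 0.0080). Fold changes were fitted to the raw counts of all 6 libraries in edgeR and tested by quasi-likelihood with Benjamini-Hochberg adjustment over all tested genes. At an adjusted p under 0.05, 0 of the 8 genes passed, and 0 at an unadjusted p under 0.05. Over all tested genes 0.0% passed after adjustment, with a smallest adjusted p of 0.0924, and 9.86% (1409 genes) before it, while DESeq2 called 49 genes and none of the 8. The MFI8 libraries were all below the vehicle libraries for 1 of the 8 genes, Lif (19.3% of all tested genes), and all above for 0 (20.9%).

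With the replicate number as a block in edgeR, an alternative to the fit above, Ccl7 (-0.32, adjusted p = 0.00077), Ccl2 (-0.20, adjusted p = 0.010) and Cxcl1 (-0.23, adjusted p = 0.016) were lower with MFI8, 3 of the 8 genes against 5.04% of all tested genes. In DESeq2 with the same block, Ccl7 (adjusted p = 0.0056) and Ccl2 (adjusted p = 0.026) passed and Cxcl1 did not (adjusted p = 0.092), against 4.33% of the 4970 genes given an adjusted p. Cxcl5, Lif and Il11 were given none and so could not pass. The labels do not say what libraries of the same number share.

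Among the chemokines with MFI8 and without the block, Ccl7 had a log2 fold change of -0.32 (SE 0.215, 95% interval -0.79 to 0.16, adjusted p = 0.650 from edgeR), a difference of -19.6%. The values were -0.23 for Cxcl1 (SE 0.131, adjusted p = 0.584), -0.21 for Cxcl5 (SE 0.156, adjusted p = 0.676) and -0.20 for Ccl2 (SE 0.191, adjusted p = 0.756). Their median was -0.22, against 0.0027 over all tested genes. Fibroblast markers were lower as well, 9 of 10 of them, with a median of -0.24 and 0 at an unadjusted p under 0.05, and their part in the chemokine values was not tested. The differences between libraries of the same number were -0.26 and -0.38 for Ccl7, -0.18 and -0.28 for Cxcl1, -0.23 and -0.16 for Ccl2, and 0.08 and -0.44 for Cxcl5, on the log2 CPM scale. Only Cxcl5 thus differed in sign between the numbers. When 1 library was left out, the fitted value of Ccl7 was between -0.64 (without MFI8 replicate 1) and -0.037 (without MFI8 replicate 2), and that of Cxcl1 between -0.41 (without vehicle replicate 1) and -0.024 (without vehicle replicate 2). Without vehicle replicate 2 the value of Cxcl5 was 0.11, and without vehicle replicate 1 that of Ccl2 was 0.080.

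Lif had a log2 fold change of -0.11 with MFI8 (SE 0.091, 95% interval -0.32 to 0.092, adjusted p = 0.712 from edgeR). Il11 had 0.08 (SE 0.321, 95% interval -0.64 to 0.80), the widest interval of the 8 genes and the lowest counts. Its value was -0.092 without vehicle replicate 1 and 0.29 without vehicle replicate 2. Of the inhibitors, Tnfaip3 was higher by 0.15 (SE 0.088, 95% interval -0.043 to 0.35, adjusted p = 0.592), with 0.16 and 0.15 between libraries of the same number, and between 0.057 (without MFI8 replicate 2) and 0.26 (without vehicle replicate 2) when 1 library was left out. Nfkbia was at 0.06 (SE 0.131, adjusted p = 0.914), with -0.04 and 0.19. Its value was -0.15 without vehicle replicate 2, -0.048 without MFI8 replicate 1 and 0.30 without vehicle replicate 1. Among the chemokines and inhibitors, the intervals reached from -42.4% for Ccl7 to 27.6% for both inhibitors.

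**Figure D3:**
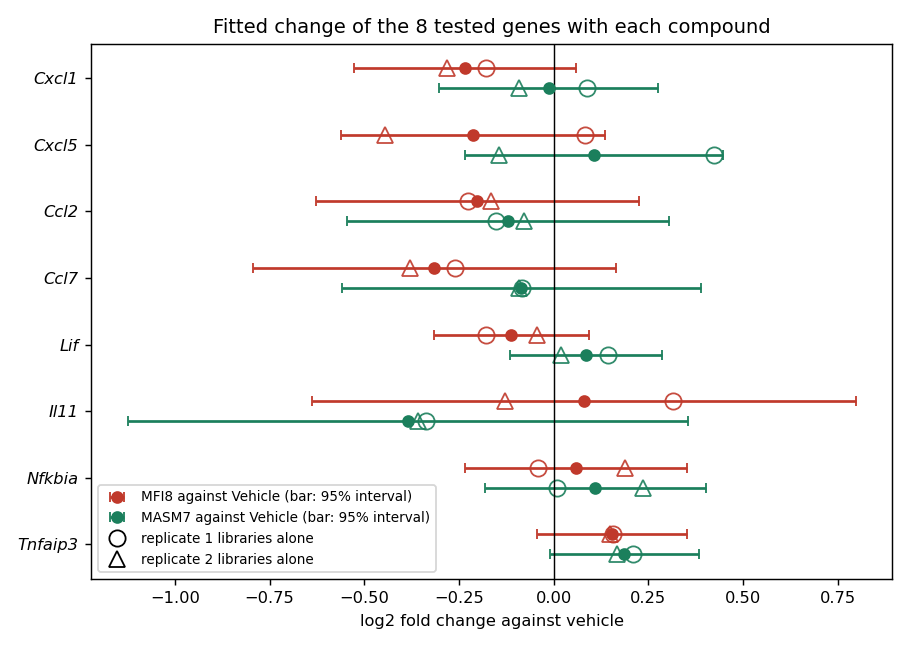
Fitted log2 fold change against vehicle (horizontal axis) of the 8 tested genes with MFI8 (red) and MASM7 (green), with bars for 95% intervals from edgeR (n = 2 libraries a treatment), and open symbols for the difference in log2 CPM between libraries of the same replicate number. Every interval, from the model without the replicate block, includes 0, with Ccl7 under MFI8 at -0.32 and Il11 under MASM7 at -0.39.

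With MASM7 compared with vehicle, the chemokines stood nearer to vehicle and Tnfaip3 was again the higher. The comparison shares its vehicle libraries with that of MFI8, so their values are not independent. Of the 8 genes, 0 passed at an adjusted p under 0.05 and 0 at an unadjusted p under 0.05 in edgeR, where 0.0% and 10.2% (1458 genes) of all tested genes did, and DESeq2 called 2 genes in all and none of the 8. With the replicate block in edgeR, 1 of the 8 passed, Tnfaip3 (0.19, adjusted p = 0.045), against 3.88% of all tested genes. In DESeq2 with the same block it did not (adjusted p = 0.132) and 0 of the 8 passed, against 4.68% of the 3932 genes given an adjusted p. Cxcl1, Cxcl5, Lif and Il11 were given none and so could not pass. Without the block, Tnfaip3 had a log2 fold change of 0.19 (SE 0.088, 95% interval -0.010 to 0.38, unadjusted p = 0.060, adjusted p = 0.501 from edgeR). Its MASM7 libraries (70.3 and 78.0 CPM) were above its vehicle libraries (60.7 and 69.4 CPM), as for 21.2% of all tested genes, although on the TPM scale 1 of them fell just below vehicle replicate 2. Il11 was at -0.39 (SE 0.331, adjusted p = 0.687), with both MASM7 libraries below vehicle, as for 21.6% of tested genes. Leaving out 1 library gave 0.094 (without vehicle replicate 1) to 0.29 (without vehicle replicate 2) for Tnfaip3, and -0.58 (without MASM7 replicate 2) to -0.17 (without vehicle replicate 2) for Il11.

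The chemokine values with MASM7 were -0.01 for Cxcl1 (SE 0.130), 0.11 for Cxcl5 (SE 0.152), -0.12 for Ccl2 (SE 0.190) and -0.09 for Ccl7 (SE 0.212), each with an adjusted p of 0.821 or more from edgeR. Between libraries of the same number, Cxcl5 differed by 0.42 for replicate 1 and by -0.14 for replicate 2 on the log2 CPM scale. Lif was at 0.08 (SE 0.090, adjusted p = 0.753) and Nfkbia at 0.11 (SE 0.131, adjusted p = 0.779). Of these 6 genes, each changed sign in the fit when 1 library was left out.

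Between the compounds, Cxcl5 and Lif were lower with MFI8 at 20 μM than with MASM7 at 1 μM in both libraries, as for 19.6% of all tested genes, and Il11 was higher in both, also as for 19.6%. The log2 differences were -0.32 for Cxcl5 (SE 0.153, 95% interval -0.66 to 0.022, unadjusted p = 0.064, adjusted p = 0.702 from edgeR), -0.20 for Lif (SE 0.090, 95% interval -0.40 to 0.0043, unadjusted p = 0.054, adjusted p = 0.691) and 0.47 for Il11 (SE 0.323, adjusted p = 0.780). Leaving out MASM7 replicate 1 gave -0.077 for Lif and 0.29 for Il11, leaving out MASM7 replicate 2 gave -0.31 and 0.67, and Cxcl5 stayed between -0.35 and -0.29. Ccl7 (-0.23, SE 0.213, and 0.038 without MASM7 replicate 1 or 0.048 without MFI8 replicate 2) and Cxcl1 (-0.22, SE 0.130, and -0.087 without MFI8 replicate 1 or -0.37 without MFI8 replicate 2) had intervals that include 0, and Ccl2 (-0.08), Nfkbia (-0.05) and Tnfaip3 (-0.03) were within 0.1 of 0. Of the 8 genes, 0 passed before or after adjustment in edgeR, against 7.18% (1026 genes) and 0.0% of all tested genes, and DESeq2 called 27 genes and none of the 8. With the replicate block in edgeR, 2 of the 8 passed, Ccl7 (-0.23, adjusted p = 0.018) and Cxcl1 (-0.23, adjusted p = 0.022), against 3.07% of all tested genes. In DESeq2 with the same block neither did (adjusted p = 0.163 and 0.215), and 0 of the 8 passed, against 1.21% of the 9120 genes given an adjusted p. Il11 was given none and so could not pass.

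For 5 of the 8 genes, the replicate number took a larger share of the variation between libraries than the treatment. A coefficient for replicate 2 against replicate 1 in an edgeR model with treatment and replicate number, added after the values of each library were seen, had an adjusted p under 0.05 for 7.67% of tested genes (1096 genes, 363 higher and 733 lower in replicate 2) and for 5 of the 8 genes. In replicate 2, Ccl7 was lower, with a log2 difference of -0.53 (SE 0.046, adjusted p = 2.1e-09), and so was Ccl2, with -0.47 (SE 0.037, adjusted p = 2.7e-10). Nfkbia was lower as well (-0.29, SE 0.043, adjusted p = 2.7e-05), whereas Cxcl1 was higher by 0.29 (SE 0.047, adjusted p = 7.0e-05) and Tnfaip3 by 0.18 (SE 0.044, adjusted p = 0.0099). Thus the Ccl genes and Cxcl1, and likewise the NF-kB inhibitors, differed in opposite directions. Cxcl5 (0.21, adjusted p = 0.132), Lif (-0.11, adjusted p = 0.329) and Il11 (0.21, adjusted p = 0.761) did not pass.

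Replicate 2 minus replicate 1 on the log2 CPM scale was -0.52, -0.44 and -0.46 for Ccl2 with vehicle, MASM7 and MFI8, -0.48, -0.49 and -0.60 for Ccl7, and 0.39, 0.21 and 0.28 for Cxcl1. For Cxcl5 it was 0.59 with vehicle but 0.02 and 0.06 with the compounds. The replicate number took 89.3% of the sum of squares of log2 CPM over the 6 libraries for Ccl2, 79.8% for Nfkbia, 78.5% for Ccl7, 62.4% for Cxcl1 and 53.4% for Tnfaip3. The median over all tested genes was 17.1% for the replicate number and 47.1% for the treatment. The treatment took the larger share for Lif (53.8%), Il11 (63.5%) and Cxcl5 (37.4%, beside 36.3% that went with neither). Of the fibroblast markers, 8 of 10 were also lower in replicate 2 at an adjusted p under 0.05, with a median of -0.29, and their part in the values of Ccl2, Ccl7 and Nfkbia was not tested. What the replicate numbers share across treatments, such as a culture or a day, is not given in the sources used here.

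**Figure D4:**
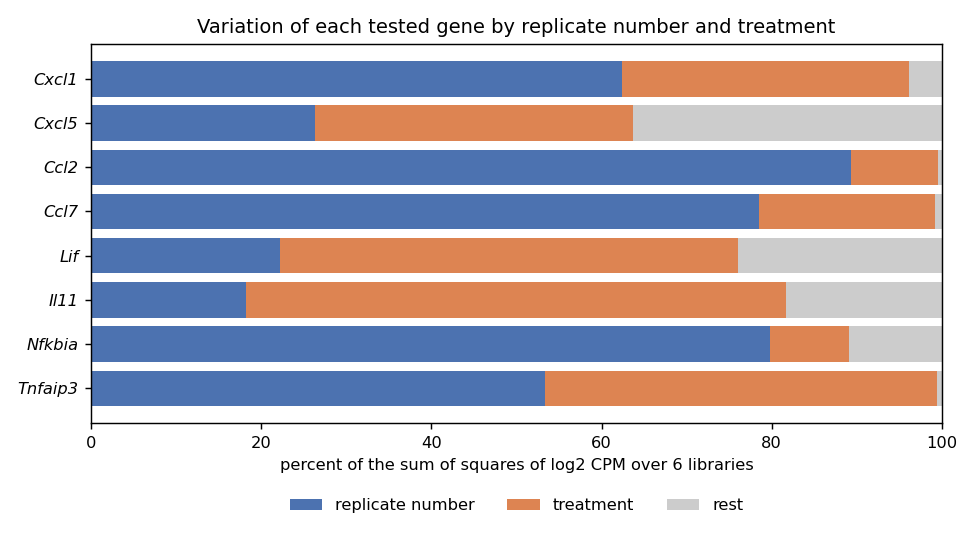
Share in percent (horizontal axis) of each tested gene's sum of squares of log2 CPM over the 6 libraries that goes with the replicate number (blue), the treatment (orange) or neither (grey). The blue part is the longest for Ccl2, Nfkbia, Ccl7, Cxcl1 and Tnfaip3.

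The rest of the pathway was read from gene lists around the members, and 0 of the 108 listed genes tested passed an adjusted p under 0.05 in edgeR with either compound, while DESeq2 called 1, Cxcl10 with MFI8. With the replicate block in edgeR, 13 of the 108 passed with MFI8 (against 5.04% of all tested genes) and 7 with MASM7 (against 3.88%). DESeq2 with the block called 5 of the 13 and 3 of the 7, did not call 2 and 1, and gave no adjusted p for 6 and 3. Fold changes with an SE below are without the block, genes called with it are named after them, and 9.86% of all tested genes with MFI8 and 10.2% with MASM7 had an unadjusted p under 0.05. Of the NF-kB subunits and IkB proteins other than Nfkbia, 9 were tested, and with MFI8 2 were higher at an unadjusted p under 0.05 and 0 lower, none of the 9 passing with the block. These were Rela, the p65 subunit (0.15, SE 0.058, adjusted p = 0.436), and Nfkb2, the p100 precursor (0.13, SE 0.055, adjusted p = 0.493). With MASM7, 0 of 9 were past that threshold. Of 24 receptors and relays to NF-kB, 0 were past it with either compound, and the most highly expressed were the kinase Irak1 (128 TPM) and the TNF receptor Tnfrsf1a (112 TPM). Medians over both lists were between -0.044 and 0.071 with either compound.

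Of 8 feedback inhibitors tested besides Nfkbia and Tnfaip3, 2 were higher and 1 lower with MFI8 at an unadjusted p under 0.05. The RNase gene Zc3h12a was at 0.55 (SE 0.176, adjusted p = 0.398), the mRNA decay factor Zfp36 at 0.34 (SE 0.116, adjusted p = 0.412) and the deubiquitinase Cyld at -0.13 (SE 0.058, adjusted p = 0.497). With MASM7, Cyld (-0.21, SE 0.058, adjusted p = 0.466) and Tax1bp1, an adaptor of A20 (-0.12, SE 0.051, adjusted p = 0.482), were lower. With the block in edgeR, Zc3h12a passed with MFI8 (adjusted p = 0.043), and Cyld with MASM7 (adjusted p = 0.016, and 0.037 from DESeq2). Of 17 other NF-kB targets tested, 3 were higher and 1 lower with MFI8 and 0 with MASM7. Counts of the growth factor gene Csf2 were 9 and 16 in the vehicle libraries, 26 and 24 under MASM7, and 30 and 39 under MFI8, for which its fitted value was 1.30 (SE 0.342, adjusted p = 0.341). The stress gene Gadd45b was at 0.26 (SE 0.077, adjusted p = 0.379) and the pentraxin gene Ptx3 at -0.48 (SE 0.108, adjusted p = 0.269). With the block in edgeR, those that passed with MFI8 included Ptx3 (adjusted p = 8.6e-05), Gadd45b (adjusted p = 0.019), Csf2 (adjusted p = 0.041), Ptgs2 (0.19, adjusted p = 0.012) and Vcam1 (-0.17, adjusted p = 0.029). Of these, Ptgs2 and Vcam1 also passed in DESeq2 with the block, Gadd45b did not (adjusted p = 0.119), and Ptx3 and Csf2 were given no adjusted p. With MASM7, Plau passed (0.27, adjusted p = 0.011). Ptgs2, Vcam1 and Plau, and Cxcl3 and Ackr3 with MASM7, are named after their values were seen. In replicate 2 against 1, 3 of the 17 were higher and 7 lower at an adjusted p under 0.05, against 363 and 733 of all 14290 tested genes (7.67% in both directions together).

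Of 12 other chemokines tested, 1 was higher and 1 lower with MFI8 at an unadjusted p under 0.05 and 0 with MASM7. Cxcl10, the Cxcr3 ligand also induced by interferon, was counted 81 and 114 times in the vehicle libraries, 131 and 120 times under MASM7, and 222 and 493 times under MFI8. It was fitted at 1.67 (SE 0.236, adjusted p = 0.0924 from edgeR and 1.7e-06 from DESeq2), while Cxcl1, Cxcl5, Ccl2 and Ccl7 all lay below 0. Cxcl12, a homeostatic chemokine of stroma, was at -0.22 (SE 0.064, adjusted p = 0.357). With the block in edgeR, Cxcl10 (adjusted p = 6.6e-08) and Cxcl12 (adjusted p = 0.0037, and 0.0099 from DESeq2) passed with MFI8, and Cxcl3 with MASM7 (0.19, adjusted p = 0.031, but 0.074 from DESeq2). Of 10 chemokine receptors, 2 were tested. The scavenging receptor Ackr3 was at 48.9 TPM and Cxcr2, the receptor of Cxcl1 and Cxcl5, at 0.325 TPM, while Ccr2, the receptor of Ccl2 and Ccl7, was at 0. Ackr3 passed with MASM7 in edgeR with the block (0.22, adjusted p = 0.043).

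Around Il6, Lif and Il11, the related ligand gene Clcf1, which also signals through gp130, was at 0.26 with MASM7 (SE 0.091, adjusted p = 0.473 from edgeR) and at 0.12 with MFI8 (SE 0.091, adjusted p = 0.682). Of 11 receptor and JAK-STAT3 genes, 1 had an unadjusted p under 0.05 with MASM7, Jak2 (-0.28, SE 0.070, adjusted p = 0.466), and 0 with MFI8. Of 10 STAT3 targets, 2 had an unadjusted p under 0.05 with MFI8, the kinase gene Pim1 (0.44, SE 0.095, adjusted p = 0.248) and the AP-1 gene Junb (0.26, SE 0.102, adjusted p = 0.451), against 0 with MASM7. Of 11 factors of cytokine mRNA decay and stability, 2 had an unadjusted p under 0.05 with MFI8, Hnrnpd (-0.16, SE 0.049, adjusted p = 0.394) and Arid5a, which stabilises Il6 mRNA (0.33, SE 0.136, adjusted p = 0.464), and 0 with MASM7. With the block in edgeR, Clcf1 (adjusted p = 0.0096, and 0.031 from DESeq2) and Jak2 (adjusted p = 0.0096) passed with MASM7. With MFI8, Pim1 (adjusted p = 0.0027), Junb (adjusted p = 0.035, but 0.521 from DESeq2), Hnrnpd (adjusted p = 0.031, and 0.020 from DESeq2) and Arid5a (adjusted p = 0.039) passed.

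**Figure D5:**
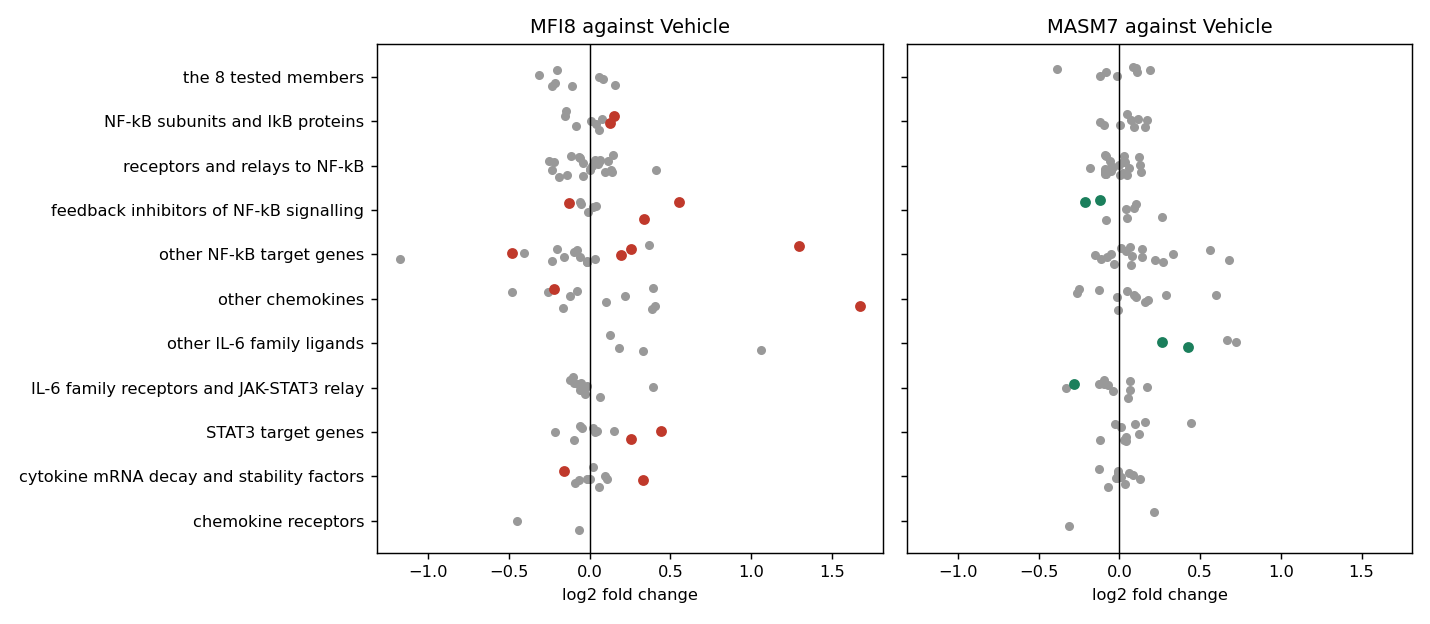
Fitted log2 fold change against vehicle (horizontal axis) of each tested gene of the 8 members and of 10 lists around them with MFI8 (left) and MASM7 (right), with coloured points for an unadjusted p under 0.05 and grey points for the rest. None of the coloured points passes adjustment in edgeR without the replicate block, and Cxcl10 (1.67) and Csf2 (1.30) lie furthest to the right with MFI8.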

How the data were processed

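RNA-seq libraries of WT MEFs with vehicle, MASM7 or MFI8 were used as deposited, 2 a group. The authors used Trimmomatic for trimming, STAR for alignment to GRCm38 and featureCounts for counting reads over exons, and deposited raw counts and TPM values. The strand setting, the gene lengths, the annotation and most tool versions are not given in the sources used here, and the deposited normalized counts were not used. Raw counts of the 14290 genes passing filterByExpr were fitted in edgeR 4.0.16 (R 4.3.3) with TMM normalization and 1 coefficient a group, all 6 libraries together, and tested by quasi-likelihood F test with Benjamini-Hochberg adjustment at 0.05 over all tested genes. SE was taken from the fold change and its F statistic. CPM was scaled by TMM, with a prior count of 2 on the log2 scale. TPM was used to compare levels between genes. The scripts were tested on simulated counts. Sums of squares of log2 CPM were split by treatment and replicate number as a description. With 2 libraries against 2, an exact permutation test cannot give a two-sided p below 0.333, so none was made. The precision rests on 22791792 to 30677751 counts a library, and p-values measure the spread between 2 libraries a group. Doses and times came from the study's text, groups from the labels.

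The members and the gene lists were chosen with earlier results of these data known, and are not independent support. Besides the members, up to 3 genes of each list with the smallest unadjusted p under 0.05 for each compound were named, or the 2 with the highest mean TPM where there were none. Some genes of the lists are not reported here. Promoters were RefSeq sequences of GRCm38.p6, and gene positions came from GENCODE vM21 (GRCm38). The alternatives were other scaling, other filters, only the 2 groups compared, the replicate number as a block, DESeq2 1.42.0, limma 3.58.1 on log2(TPM + 1) and log2(TPM + 0.1), and each library left out. DESeq2 with the block was added after the data were seen.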

Additional observations from a re-analysis of the deposited data

How the results depend on the processing

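Of the 384 values that 16 alternatives gave for the 24 member fold changes, 348 kept their direction without passing the threshold. Of the rest, 9 passed it and 27 changed sign, in 14 results. Values given no adjusted p by DESeq2 are counted as not passing. Deviations of same-numbered libraries from their group means correlated across the 14290 genes with r of 0.152 to 0.188 for the 3 pairs of groups, and the labels name no shared batch, so the block is given as an alternative. With the replicate number as a block, edgeR called 720 genes for MFI8 against vehicle (5.04%), 554 for MASM7 (3.88%) and 439 between the compounds (3.07%), including 3, 1 and 2 members: Ccl7 (-0.32, adjusted p = 0.00077), Ccl2 (-0.20, adjusted p = 0.010) and Cxcl1 (-0.23, adjusted p = 0.016) with MFI8, Tnfaip3 with MASM7 (0.19, adjusted p = 0.045), and Ccl7 (-0.23, adjusted p = 0.018) and Cxcl1 (-0.23, adjusted p = 0.022) between the compounds. Of the listed genes that are not members, the block called 13 with MFI8, 7 with MASM7 and 10 between the compounds. DESeq2 with the block, added after the data were seen, called 215, 184 and 110 genes and 2 members with MFI8, Ccl7 (adjusted p = 0.0056) and Ccl2 (adjusted p = 0.026), but not Cxcl1 (0.092), nor Tnfaip3 with MASM7 (0.132), nor Ccl7 and Cxcl1 between the compounds (0.163 and 0.215). Without a filter on low counts 256, 127 and 168 genes were called and 1 member with MFI8, Ccl7 (-0.31, adjusted p = 0.0080), and that of Cxcl1 with MASM7 turned to 0.0060. DESeq2 without the block called 49, 2 and 27 genes, and edgeR on only the 2 groups compared 0, 1 and 2, with 0 members in each. Leaving out each library in turn gave 0 to 26, 0 to 2 and 0 to 24 genes and 0 members, and fold changes of -0.64 to -0.037 (Ccl7), -0.41 to -0.024 (Cxcl1), -0.47 to 0.11 (Cxcl5), -0.44 to 0.080 (Ccl2), -0.092 to 0.29 (Il11), -0.16 to -0.057 (Lif), 0.057 to 0.26 (Tnfaip3) and -0.15 to 0.30 (Nfkbia) with MFI8, of -0.19 to 0.20 (Cxcl1), -0.15 to 0.43 (Cxcl5), -0.36 to 0.16 (Ccl2), -0.35 to 0.18 (Ccl7), -0.034 to 0.20 (Lif), -0.58 to -0.17 (Il11), 0.094 to 0.29 (Tnfaip3) and -0.096 to 0.35 (Nfkbia) with MASM7, and of -0.37 to -0.087 (Cxcl1), -0.31 to -0.077 (Lif), 0.29 to 0.67 (Il11), -0.32 to 0.16 (Ccl2), -0.55 to 0.048 (Ccl7), -0.16 to 0.063 (Nfkbia) and -0.13 to 0.058 (Tnfaip3) between the compounds. Tnfaip3 between the compounds was 0.0075 on log2(TPM + 1) and 0.0076 on log2(TPM + 0.1) in limma. The cause of these shifts was not tested. Il6, Icam1 and Il11 are limited by depth, with at most 4, 2 and 29 counts a library.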
